A study of Mus musculus with 6 samples.

Results

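Lysosomal genes were followed in lung RNA from mice with silicosis, a scarring disease caused by crystalline silica. The group comprised 47 genes of the 17973 in the mRNA count table. They were picked by symbol for their function: cathepsins and other lysosomal peptidases, subunits of the vacuolar proton pump (V-ATPase), glycosidases, genes of lipid breakdown and export, lysosomal membrane genes and the MiT/TFE transcription factors. This choice, like that of the further lists below, was made with earlier results of these data known. Counts over the lists are therefore described and not tested. All 47 were in the table and all 47 passed the filter on low counts, with between 538 and 107479 counts per library. All libraries came from whole lung of C57BL/6 mice, collected after 90 days. The 3 silicosis libraries (N129, N136 and N138) came from lungs into which 8 mg of silica, suspended in 40 µL of saline, had been instilled once through the trachea. The 3 control libraries (C7, C8 and C9) are labelled control, and the series text names sterile saline as their treatment. The age and sex of the mice are not given in the labels, nor do they say whether each library is a mouse of its own. The p-values therefore measure the spread between these libraries, which may be technical.

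Lysosomes digest material taken up by endocytosis and phagocytosis, as well as material delivered by autophagy. Their hydrolases work at acid pH, which the V-ATPase keeps up by moving protons into the lumen at the cost of ATP. TFEB, TFE3 and MITF are related factors that bind E-box sequences near many lysosomal genes and can raise them together. In lung, macrophages take up inhaled particles into lysosomes, silica particles can damage lysosomal membranes, and alveolar type 2 cells store surfactant in lamellar bodies, which are related to lysosomes.

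Levels are given as CPM, counts scaled to a common library size, and fold changes as silicosis relative to control, each with a standard error (SE) in log2 units. The test throughout is the edgeR quasi-likelihood test over all 15808 mRNAs that passed the filter, with p-values adjusted over all of them and a threshold of 0.05. Libraries held between 33698920 and 44000748 mRNA counts. In the marker lists, the lung markers of type 2 cells were abundant in every library, with a summed level between 16058 and 24025 CPM. The bulk measurement cannot tell apart more cells of a type and more RNA per cell.

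Of the 47 lysosomal genes, 29 rose in silicosis, 0 fell and 18 did not pass the test. Over all tested mRNAs 15.3% were called higher, 16.5% lower and 31.8% in either direction. At an unadjusted edgeR p under 0.05, and with DESeq2 or limma-voom, 0 of the 47 were lower as well. The median log2 fold change of the 47 genes was 0.45, against 0.02 over all tested mRNAs, and 42 of the 47 had a value above 0. The changes were moderate. Only 8 of the 29 rose by at least 2-fold, where 5.39% of all tested mRNAs did, and the steepest was 2.87-fold. In 32 of the 47 genes each silicosis library was above each control library, against 23.7% of all tested mRNAs, and 47.7% of those had no overlap in either direction. These 32 were the 29 called genes with Atp6v0d1, Atp6v1d and Atp6ap1. Summed over the 47 genes, the level was between 6708 and 7636 CPM in the controls and between 9803 and 14484 CPM in silicosis. The number of genes called higher was 18 without C7 and 23 without N136, where 10.1% and 12.4% of all tested mRNAs were called higher. In the fit without N136 1 gene, Gaa, was called lower.

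**Figure D1:**
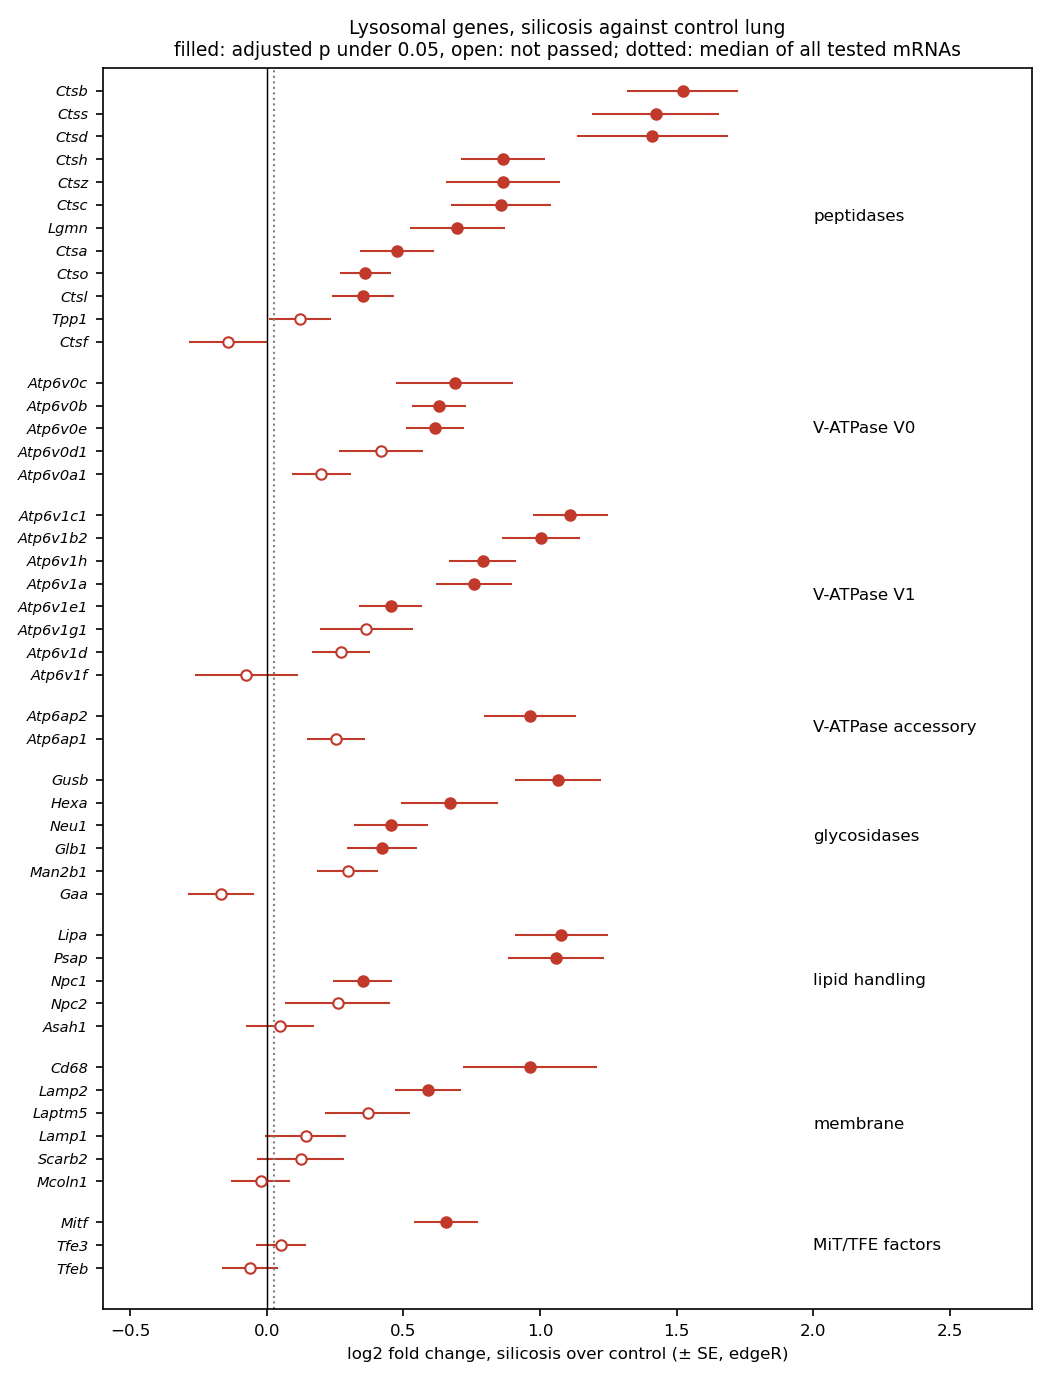
Log2 fold change, silicosis over control, with SE for each of the 47 genes, grouped by role; filled points passed the edgeR test at an adjusted p of 0.05 and open points did not, and the dotted line is the median of all tested mRNAs. Ctsb stands farthest to the right at 1.52, the 29 filled points all lie above 0, and the genes below 0 are open.

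The factors come first because they bind near the other genes. Mitf, the factor best known from melanocytes and osteoclasts, was the 1 factor of the 3 that rose. Its levels were 24.6, 27.3 and 22.2 CPM in C7, C8 and C9, and 36.2, 38.1 and 42.6 CPM in N129, N136 and N138. The lowest silicosis library lay above the highest control library, and the log2 fold change was 0.66 (SE 0.12, edgeR adjusted p = 0.00311). Tfeb had 37.2, 32.8 and 37.3 CPM in the controls and 32.7, 36.5 and 33.6 CPM in silicosis, with a log2 fold change of -0.06 (SE 0.10, edgeR adjusted p = 0.687). Tfe3 had 49.96, 50.9 and 56.7 CPM in the controls and 53.1, 55.1 and 54.9 CPM in silicosis, with a log2 fold change of 0.05 (SE 0.09, edgeR adjusted p = 0.707). For Tfeb and Tfe3 the groups overlapped. These factors are controlled in large part by phosphorylation and entry into the nucleus, which RNA levels do not show.

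Promoters were searched for the letters these factors are known to bind. RefSeq promoters on GRCm38.p6, each running from 250 bases before to 50 after a start, were on hand for 39 of the 47 genes, all but Ctsb, Ctsh, Atp6v1b2, Atp6v1c1, Atp6v1g1, Atp6v1h, Asah1 and Npc1. The palindrome TCACGTGA, the core of the site known as CLEAR (coordinated lysosomal expression and regulation), was found in 6 of the 39, or 15.4%. It was in 0.974% of all 32851 promoters and in at least 1 promoter of 1.87% of the tested genes with one. The shorter CACGTG, which TCACGTGA contains, was in 13 of the 39 (33.3%), 7.15% of all promoters and 10.6% of the tested genes. TCATGTG, a form that MITF is known to bind, was in 5 of the 39 (12.8%) on either strand, 3.77% of all promoters and 2.90% of the tested genes. The genes with TCACGTGA are shown because they stand on both sides of the test: Ctsa, Ctsd, Atp6v1a and Atp6v0e rose, whereas Mcoln1 and Atp6v0d1 did not pass. Each line is 5′ to 3′ on the gene's own strand with the motif in capitals.
Ctsa, chr2:164833749-164833778, + strand, motif from 13 bases before the start: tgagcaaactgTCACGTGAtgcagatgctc
Ctsa, chr2:164833766-164833795, + strand, a further copy past the start: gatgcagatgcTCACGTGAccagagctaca
Ctsd, chr7:142387908-142387937, - strand, 99 bases before the start: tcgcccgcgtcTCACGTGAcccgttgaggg
Atp6v1a, chr16:44139373-44139402, - strand, 132 bases before the start: ttttttttaaaTCACGTGAtaggcttaacg
Atp6v0e, chr17:26676387-26676416, + strand, past the start: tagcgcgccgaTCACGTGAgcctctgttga
Atp6v0d1, chr8:105566050-105566079, - strand, 4 bases before the start: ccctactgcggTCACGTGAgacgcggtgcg
Mcoln1, chr8:3500462-3500491, + strand, 46 bases before the start: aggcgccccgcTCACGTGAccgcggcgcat

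Lamp1 is shown because its promoter had the most CACGTG copies of the 39 genes, 4 between 61 and 15 bases before the start, in capitals here, while its RNA did not pass the test.
Lamp1, chr8:13159094-13159157, + strand: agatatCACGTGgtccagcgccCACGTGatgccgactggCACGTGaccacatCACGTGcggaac

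The TCATGTG copies in Ctss and Atp6v0c, which both rose, and in Scarb2, which did not pass, are shown as examples. In Scarb2 the motif is on the opposite strand and so reads CACATGA. Ctsa, which rose, has 1 copy and Tpp1, which did not pass, has 2, not shown here.
Ctss, chr3:95526793-95526821, + strand: ttgtggatgctTCATGTGacaagctccga
Atp6v0c, chr17:24169450-24169478, - strand: gcggggacagaTCATGTGacgcgagcgcg
Scarb2, chr5:92505672-92505700, - strand: ccgctgcagggCACATGActgaaggcctc

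Rises were counted among genes with and without a motif. Of the 6 genes with TCACGTGA 4 rose, and of the 33 without it 19 rose, with median log2 fold changes of 0.55 and 0.42. Of the 13 with CACGTG 8 rose, with a median of 0.42, and of the 26 without it 15 rose, with a median of 0.45. Of the 5 with TCATGTG 3 rose, with a median of 0.48, and of the 34 without it 20 rose, with a median of 0.44. A match in these windows describes the letters only.

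Counts in each role group stand beside 15.3% of all tested mRNAs called higher. With 1 library left out, that share was between 10.1% and 16.2%. Among the peptidases 10 of 12 rose, with a median log2 fold change of 0.78. Without C7, and likewise without C8, the count was 6 of 12. Ctsb, a cysteine cathepsin that is known to leak from silica-damaged lysosomes, rose most. Its levels were 365, 410.3 and 385 CPM in C7, C8 and C9 and 919, 1543 and 869.8 CPM in N129, N136 and N138. The lowest silicosis library was far above the highest control library, a 2.87-fold rise (log2 fold change 1.52, SE 0.20, edgeR adjusted p = 0.000799). Ctsb shares 15.4% of its 50-base windows with other genes' transcripts, mainly with Fdft1. Ctss, a cysteine cathepsin of antigen-presenting cells, had 155, 178 and 157 CPM in the controls and 342, 639 and 331 CPM in silicosis (log2 fold change 1.42, SE 0.23, edgeR adjusted p = 0.0021). N136 was the highest library for both genes, and without it the log2 fold changes were 1.20 and 1.04, still past the test.

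Ctsd, the main aspartic protease of lysosomes, was singled out after its values were seen. It had 237, 264 and 181 CPM in the controls and 478, 913 and 421 CPM in silicosis, 2.66-fold higher (log2 fold change 1.41, SE 0.28). Ctsd shares 36.5% of its windows with other genes, nearly all with the predicted gene Gm49369, so part of its count is uncertain. Next came Ctsh, Ctsz and Ctsc, each about 1.8-fold higher, with 1.82, 1.82 and 1.81. Ctsc activates granule serine proteases, and Ctsz and Ctsh trim protein ends. Lgmn, the asparaginyl endopeptidase that processes cathepsins, was 1.62-fold higher and Ctsa, the protective protein of a glycosidase complex, 1.39-fold.

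The lowest rise among the peptidases was in Ctsl, a broad cysteine cathepsin, with 126, 128 and 122 CPM in the controls and 139, 186 and 156 CPM in silicosis (log2 fold change 0.35, SE 0.11, edgeR adjusted p = 0.0417). The groups did not overlap, but the call was lost on leaving out C7, C8, C9, N136 or N138, at edgeR adjusted p from 0.0541 to 0.112. Ctso was 1.28-fold higher as well, a call that ended without C8, C9 or N129 at edgeR adjusted p from 0.0563 to 0.0593. That of Ctsz ended without C7 (0.0537), that of Lgmn without C7 or C8 (0.063 and 0.0577), and that of Ctsa without C7, C8 or N136 (0.0981, 0.0805 and 0.0636). Tpp1, the tripeptidyl peptidase, and Ctsf, a widely expressed cysteine cathepsin, did not pass. Their log2 fold changes were 0.12 and -0.14. Shared windows made up 28.0% of Ctsl and 15.8% of Ctsa, so their counts are uncertain too. Summed over the 12 peptidases the level was between 1805 and 2018 CPM in the controls and between 3091 and 5224 CPM in silicosis.

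Among 15 V-ATPase genes, 9 rose and 6 missed the threshold, at a median log2 fold change of 0.61. In 12 of the 15 the silicosis libraries were all above the controls, against 23.7% of all tested mRNAs. The V1 sector, the cytosolic part that splits ATP, had 5 of 8 genes higher. Atp6v1c1, which couples V1 to the membrane part, had 42.8, 46.3 and 43.0 CPM in the controls and 78.1, 115 and 92.0 CPM in silicosis (log2 fold change 1.11, SE 0.14, edgeR adjusted p = 0.000542). This was the lowest p among the 47 genes. Atp6v1b2, the widely expressed B subunit, had 111, 135 and 109 CPM in the controls and 197, 282 and 234 CPM in silicosis (log2 fold change 1.003, SE 0.14, edgeR adjusted p = 0.00107). In both genes the lowest silicosis library stood well above the highest control library. Its partner Atp6v1a, the catalytic A subunit, was 1.69-fold higher, and the regulatory Atp6v1h 1.73-fold.

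Atp6v1e1, a stalk subunit, had the lowest rise among called V1 genes. It had 71.4, 78.4 and 74.9 CPM in the controls and 91.4, 120.2 and 96.0 CPM in silicosis (log2 fold change 0.45, SE 0.12, edgeR adjusted p = 0.0167). Leaving out C7 ended that call, at an edgeR adjusted p of 0.069. The V1 subunits Atp6v1d, Atp6v1f and Atp6v1g1 did not pass, with log2 fold changes of 0.27, -0.08 and 0.36. Shared windows made up 12.5% of Atp6v1f and 18.8% of Atp6v1g1.

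In the V0 sector, the membrane part that carries protons, 3 of 5 genes rose. Atp6v0b, a proteolipid of the rotating ring, had 49.5, 51.0 and 43.1 CPM in the controls and 70.5, 78.01 and 73.5 CPM in silicosis (log2 fold change 0.63, SE 0.10, edgeR adjusted p = 0.00169). Atp6v0e, a small membrane subunit, had 41.5, 44.9 and 43.6 CPM in the controls and 63.6, 75.1 and 60.5 CPM in silicosis (log2 fold change 0.61, SE 0.11). Both pairs of groups were far apart relative to the spread within them. Atp6v0c, the main ring proteolipid, was less even, with 83.7, 86.1 and 54.3 CPM in the controls and 108, 157 and 96.5 CPM in silicosis (log2 fold change 0.69, SE 0.21, edgeR adjusted p = 0.0373). Its call was lost on leaving out C7, C8, C9, N129 or N136, at edgeR adjusted p from 0.051 to 0.111 and log2 fold changes from 0.45 to 0.80, and it shares 12.1% of its windows with other genes, chiefly a pseudogene. Atp6v0d1, the d1 subunit, had 69.4, 76.2 and 75.8 CPM in the controls and 89.7, 125 and 80.7 CPM in silicosis and did not pass (log2 fold change 0.42). Atp6v0a1, the a1 subunit, had 140.2, 135 and 161 CPM in the controls and 148, 178 and 175 CPM in silicosis and did not pass either (0.20). Atp6v0d1 passed with DESeq2, and with edgeR when N138 was left out (edgeR adjusted p = 0.0185).

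The accessory subunits, which help to assemble the pump, differed in call. Atp6ap2, also known as the prorenin receptor, had 56.3, 64.5 and 43.1 CPM in the controls and 94.8, 128.6 and 96.1 CPM in silicosis (log2 fold change 0.96, SE 0.17, edgeR adjusted p = 0.00287). Atp6ap1, at a log2 fold change of 0.25 (SE 0.11), did not pass. The difference between the pair was not tested.

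**Figure D2:**
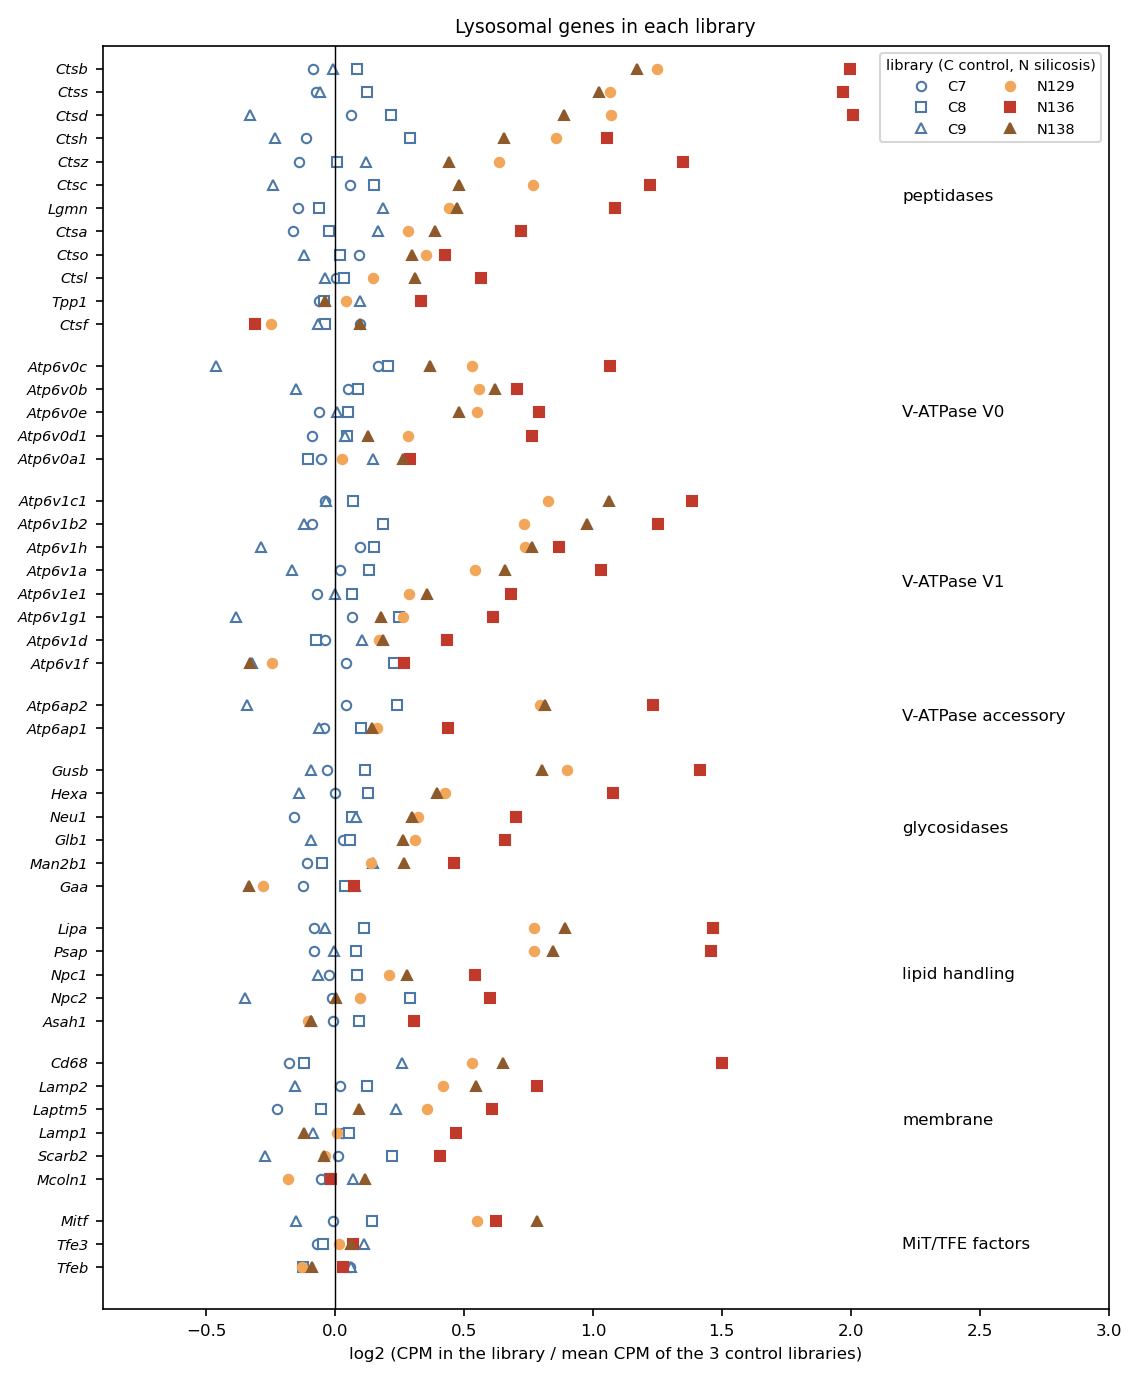
Level of each of the 47 genes in each library as log2 of CPM over the control mean, with controls as open blue symbols and silicosis libraries as filled symbols. The red squares of N136 are the rightmost silicosis symbols in 44 of 47 genes, and in 32 genes no silicosis symbol falls among the controls.

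Of the 6 glycosidases, which strip sugars from glycolipids and glycoproteins, 4 rose. The count was 1 without C7 or C9 and 2 without C8 or N136. Gusb, beta-glucuronidase, had 53.4, 59.2 and 51.2 CPM in the controls and 102, 145 and 95.3 CPM in silicosis, without overlap (log2 fold change 1.07, SE 0.16, edgeR adjusted p = 0.00123). Hexa, the alpha subunit of hexosaminidase, had 81.4, 89.0 and 73.9 CPM in the controls and 110, 172 and 107 CPM in silicosis (log2 fold change 0.67, SE 0.18, edgeR adjusted p = 0.0191). The Hexa call ended without C7 or C9 (0.0606 and 0.0721), and its log2 fold change was 0.41 without N136. Hexa shares 10.5% of its windows with other genes. Glb1, beta-galactosidase, had 25.7, 26.2 and 23.6 CPM in the controls and 31.2, 39.8 and 30.2 CPM in silicosis (log2 fold change 0.42, SE 0.13, edgeR adjusted p = 0.0343). The groups of Glb1 did not overlap, yet its call was lost on leaving out C7, C8, C9, N129 or N136, at edgeR adjusted p from 0.0543 to 0.101.

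Neu1, the sialidase, was 1.37-fold higher, a call that ended without C7, C8, C9 or N136 at edgeR adjusted p from 0.0546 to 0.115. Man2b1, alpha-mannosidase, did not pass, with a log2 fold change of 0.30. Gaa, the acid glucosidase that digests glycogen, had the lowest value of the 47 genes, with a log2 fold change of -0.17. It had 136.2, 153 and 157 CPM in the controls and 122, 156 and 118 CPM in silicosis, which overlap. Without N136 it was called lower, with a log2 fold change of -0.31 (edgeR adjusted p = 0.0441).

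Of the 5 genes of lipid breakdown and export 3 rose. Lipa, the acid lipase that frees cholesterol and fatty acids, had 88.3, 101.2 and 91.1 CPM in the controls and 159.8, 259 and 174 CPM in silicosis (log2 fold change 1.08, SE 0.17, edgeR adjusted p = 0.00179). Psap, the precursor of the saposins that help to break down sphingolipids, had 848, 952 and 895 CPM in the controls and 1534, 2465 and 1615 CPM in silicosis (log2 fold change 1.06, SE 0.17, edgeR adjusted p = 0.00218). For both genes every silicosis library was well above the highest control library, and the rise held without N136, at 0.83 and 0.80. Npc1, which moves cholesterol across the lysosomal membrane, had 148, 160.2 and 144 CPM in the controls and 174, 219.7 and 183 CPM in silicosis (log2 fold change 0.35, SE 0.11, edgeR adjusted p = 0.0348). That call ended without C7, C8, C9 or N136, at edgeR adjusted p from 0.0634 to 0.110. Npc2, which hands cholesterol to Npc1, and Asah1, acid ceramidase, did not pass, with log2 fold changes of 0.26 and 0.05. For Npc2 the control libraries alone ran from 448 to 699 CPM.

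Of the 6 membrane genes 2 rose, and 1 did without C7 or C8. Lamp2, a major membrane glycoprotein that also serves in autophagy, had 299, 322 and 265 CPM in the controls and 395, 509 and 431 CPM in silicosis (log2 fold change 0.59, SE 0.12, edgeR adjusted p = 0.00592). Lamp1, its close relative, had 494, 504 and 457 CPM in the controls and 488, 671 and 446 CPM in silicosis (log2 fold change 0.14, SE 0.15). For Lamp1 only N136 was above the controls. Cd68, a macrophage member of the same family, had 34.2, 35.6 and 46.3 CPM in the controls and 55.9, 109.6 and 60.7 CPM in silicosis (log2 fold change 0.96, SE 0.24, edgeR adjusted p = 0.0159). The Cd68 call ended without C7 or C8 (0.0619 and 0.0593), and the log2 fold change was 0.59 without N136. Scarb2, the receptor that carries beta-glucocerebrosidase, Mcoln1, a calcium channel, and Laptm5, a protein of leukocyte lysosomes, did not pass. Their log2 fold changes were 0.12, -0.02 and 0.37. Laptm5 passed without N138 (edgeR adjusted p = 0.031).

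**Figure D3:**
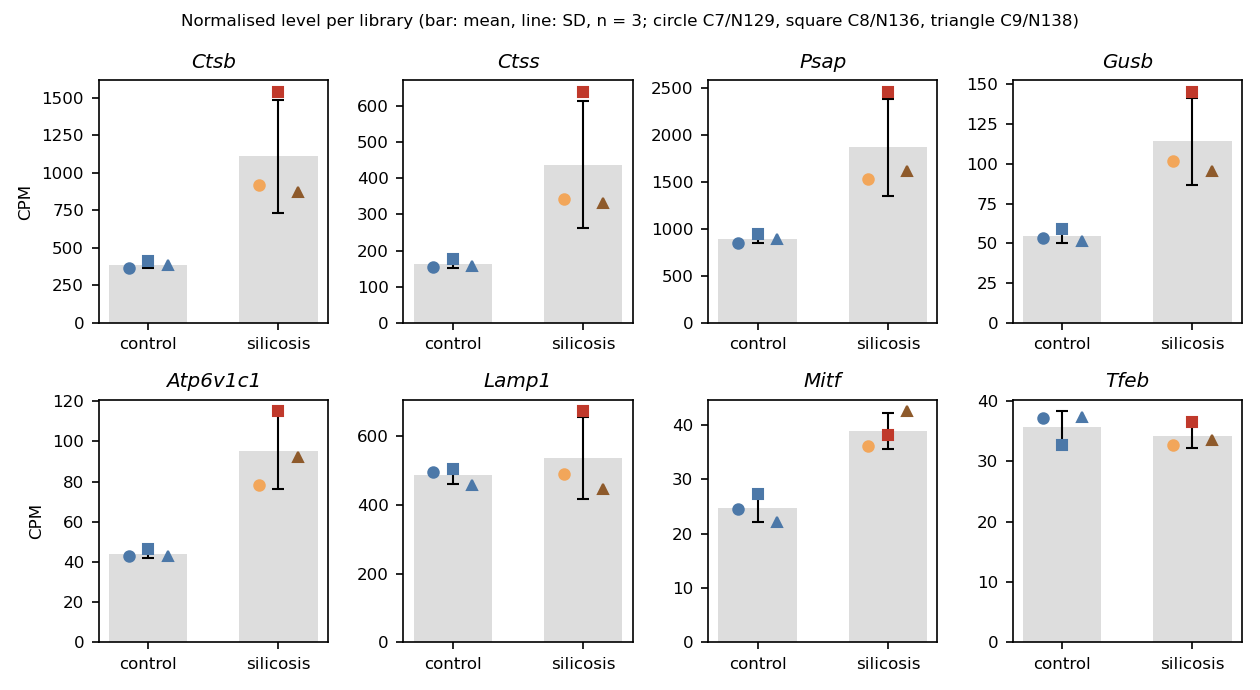
CPM in each library for 8 of the genes, with bars for the mean and lines for the SD of 3 libraries. Ctsb, Ctss, Psap, Gusb, Atp6v1c1 and Mitf show no overlap between groups, whereas Lamp1 and Tfeb do.

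The silicosis libraries were uneven in these genes. N136 was the highest of the 3 in 44 of the 47 genes, where over all tested mRNAs it was the highest in 36.6%. It was also the highest in 82 of 116 genes of the further lysosomal lists described later. By list this ran from 12 of 13 autophagy genes to 3 of 8 other V-ATPase subunits. In between were 22 of 26 acid hydrolases and 8 of 16 genes in the list of TFEB regulators. The median log2 ratio of N136 to the mean of N129 and N138 was 0.39 over the 47 genes and -0.01 over all tested mRNAs. Ctsd had the largest ratio, 1.02, followed by Ctss with 0.93 and Cd68 with 0.91. Mitf and Ctsf were below 0, at -0.05 and -0.25. Across the 47 genes this ratio went with the rise in N129 and N138 over controls (Pearson r = 0.44, Spearman rho = 0.41). Both measures use N129 and N138, with opposite sign, and the genes share the same 6 libraries, so this only describes them. Over all tested mRNAs with counts in every library the values were -0.09 and -0.06.

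**Figure D4:**
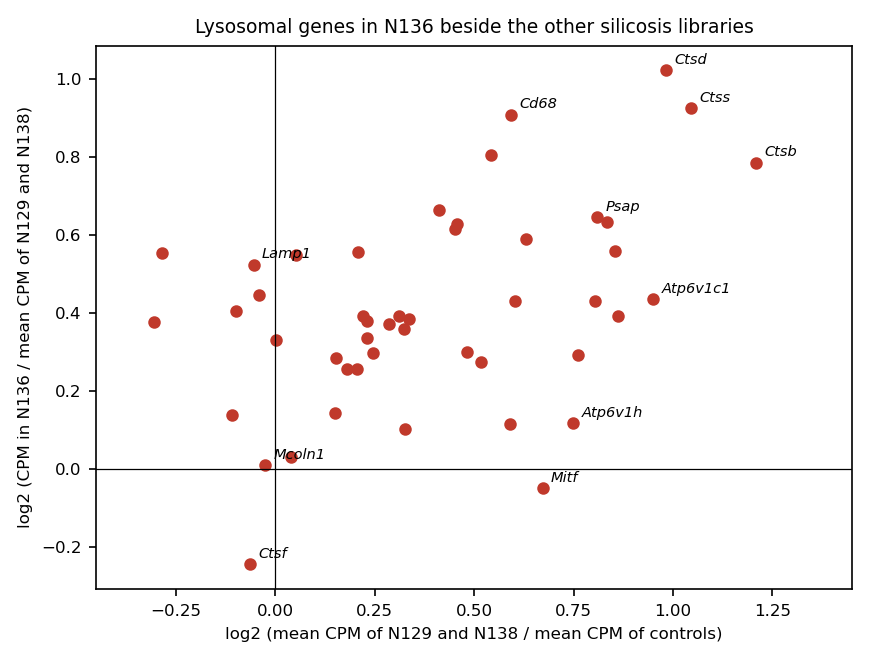
Each point is 1 of the 47 genes, with the log2 ratio of the mean of N129 and N138 to the control mean on the x axis and that of N136 to the mean of N129 and N138 on the y axis. Only 2 points, Mitf and Ctsf, lie below 0 on the y axis, and Ctsd, Ctss and Ctsb are high on both.

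Marker genes of other cell types moved in the same libraries. Their counts with all libraries stand beside 15.3% of all tested mRNAs called higher and 16.5% called lower. With 1 library left out, the share called higher was between 10.1% and 16.2%. Of 10 macrophage markers 6 rose and 1 fell, and their summed level was between 3307 and 3897 CPM in the controls and between 5598 and 10117 CPM in silicosis. N136 was the highest silicosis library for 7 of the 10, and without C7 only 2 of them were called higher. Most of that sum is Lyz2, lysozyme, with 2801, 3339 and 2791 CPM in the controls and 5460, 9366 and 4960 CPM in silicosis (log2 fold change 1.15). The sum therefore mainly follows Lyz2, and the median log2 fold change of the 10 markers was 0.53. Cd68 is in this list and Laptm5 in the next. Of 6 pan-leukocyte markers 4 rose (2 without C7 or C8) and 0 fell, with sums between 871 and 1099.9 CPM in the controls and between 1273 and 1579.7 CPM in silicosis. Of 7 neutrophil markers 4 rose and 0 fell (1 without N138), with sums from 86.3 to 155 CPM and from 244 to 390.2 CPM.

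Of 8 markers of resident alveolar macrophages 0 rose and 5 fell, with sums from 476 to 577 CPM in the controls and from 399 to 694 CPM in silicosis. Most of that sum in each library is Chil3, which did not pass and is named after its values were seen. The 5 that fell were Siglecf, Ear2, Car4, Krt79 and Fabp1, also named after their values were seen. Bulk lung RNA does not show which cells the RNA of a marker came from. Of 9 type 2 cell markers 0 rose and 1 fell (0 without C7, C8, C9 or N129), and N136 was the highest silicosis library for 8 of them. All 6 endothelial and all 6 type 1 cell markers had log2 fold changes below 0, and 5 of each list fell. Of 6 fibroblast markers 2 rose (1 without C7) and 3 fell, with sums from 2465 to 2945 CPM and from 2516 to 3057 CPM. With all libraries, the counts of 0 for markers that rose or fell held with DESeq2, with limma-voom and at an unadjusted edgeR p under 0.05. No marker in these lists was at 0 in all libraries. The part of cell numbers in the lysosomal changes was not tested.

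Levels of different genes can be compared only per length. Per kilobase of annotated exon, Psap was the most abundant of the 47 genes in the controls, with 327 CPM per kb, followed by Lamp1 with 181, Ctss with 120.2 and Npc2 with 105. In silicosis the order was Psap with 682, Ctss with 322, Ctsd with 257, Lamp1 with 200.04 and Ctsb with 184. The factors were low on this scale, with Mitf, Tfe3 and Tfeb at 3.99, 5.67 and 6.30 CPM per kb in the controls. Lengths are the merged exons of GENCODE M21 on GRCm38, which can exceed the transcript in use, so the scale is approximate.

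Lysosomal genes outside the 47 were read from 9 further lists with 124 entries, of which 116 were tested. Among these, 36 rose (31.0%), 12 fell and 68 did not pass, with a median log2 fold change of 0.12. Counts in each of these lists with all libraries stand beside 15.3% of all tested mRNAs called higher and 16.5% called lower. With 1 library left out, the share called higher was between 10.1% and 16.2%. In the list of other cathepsins, Ctsk, the collagen-degrading cathepsin of osteoclasts, had 13.3, 19.3 and 19.4 CPM in the controls and 114, 200.1 and 146 CPM in silicosis, 8.84-fold higher (log2 fold change 3.14, SE 0.23, edgeR adjusted p = 5.61e-05). It stood far above every one of the 47 genes in fold change. Ctse and Ctsw, the other tested genes of that list, did not pass. Of 26 other acid hydrolases and activators 7 rose (4 without C9) and 4 fell (2 without C8 or C9 and 1 without N129). Gla, alpha-galactosidase A, had 11.3, 11.2 and 9.89 CPM in the controls and 34.1, 53.0 and 36.8 CPM in silicosis, a 3.83-fold rise. Acp5, the tartrate-resistant phosphatase, had 11.3, 13.1 and 13.3 CPM in the controls and 38.4, 49.5 and 31.8 CPM in silicosis, a 3.18-fold rise. Neither gene overlapped between groups. The 4 that fell were Sgsh, Ids, Arsb and Hyal1, named after their values were seen, all enzymes of glycosaminoglycan breakdown, with log2 fold changes of -0.39, -0.33, -0.41 and -0.91. Shared windows made up 57.8% of Arsb and 63.1% of Hyal1.

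Of 8 other V-ATPase subunits 2 rose, Tcirg1 and Atp6v0d2, and 0 fell with edgeR, DESeq2 or limma-voom, though 2 were lower at an unadjusted edgeR p under 0.05 and 2 were called lower without N138. Tcirg1, the a3 subunit of osteoclasts and macrophages, had 42.5, 43.4 and 41.5 CPM in the controls and 117, 112 and 125 CPM in silicosis (log2 fold change 1.48, SE 0.09, edgeR adjusted p = 1.63e-05). N136 was its lowest silicosis library. Atp6v0d2, the d2 subunit of osteoclasts and macrophages, had 32.7, 40.1 and 31.6 CPM in the controls and 63.9, 114 and 70.2 CPM in silicosis (log2 fold change 1.25, SE 0.21). Among 10 osteoclast-like markers, which include Ctsk, Acp5 and Atp6v0d2, 5 rose and 2 fell, and Calcr, the calcitonin receptor, had a log2 fold change of 0.21 and did not pass.

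Ratios of related genes within a library do not depend on library scaling. The log2 ratio of Tcirg1 to Atp6v0a1 was -1.77 ± 0.17 in the controls and -0.49 ± 0.17 in silicosis (SD, n = 3). That of Atp6v0d2 to Atp6v0d1 was -1.09 ± 0.17 and -0.27 ± 0.19. Ctsk to Ctsl moved from -2.88 ± 0.31 to -0.09 ± 0.20. These are ratios of CPM, not per length, so only their change between groups is read. Mitf to Tfeb moved from -0.53 ± 0.25 to 0.18 ± 0.14. For these 4 ratios the groups did not overlap, with an exact two-sided permutation p = 0.1, the smallest that 3 against 3 libraries can give, and 0.125 after adjustment over 5 ratios.

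**Figure D5:**
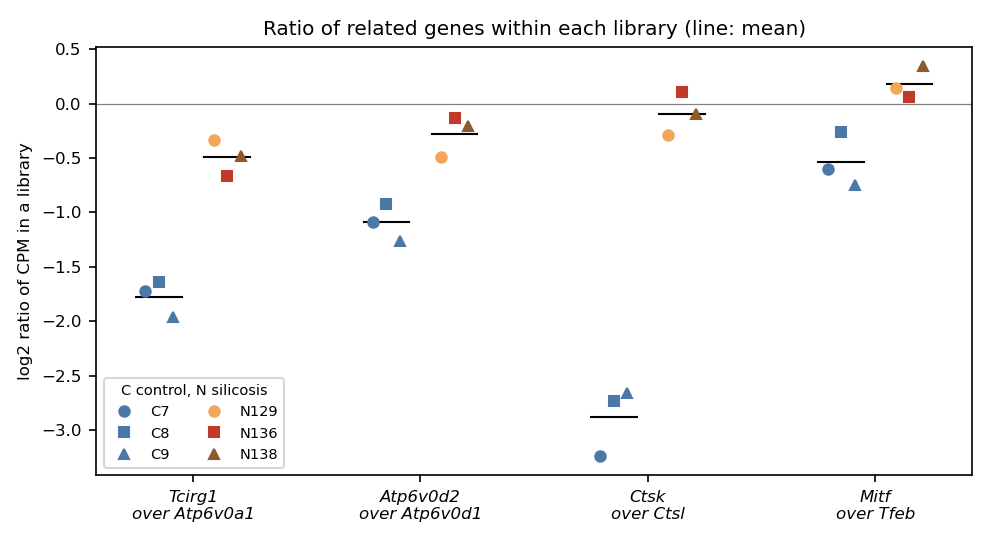
Log2 ratio of CPM of 4 pairs of related genes within each library, with controls in blue, silicosis in warm colours and lines for group means. Silicosis symbols lie above all control symbols in each of the 4 pairs.

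Of 22 other lysosomal membrane genes 11 rose and 1 fell (2 without C9). Slc11a1, a metal ion exporter of phagosomes, had 13.4, 11.2 and 12.6 CPM in the controls and 49.3, 80.05 and 58.1 CPM in silicosis, a 5.04-fold rise. Slc15a3, a peptide and histidine transporter, had 24.1, 25.1 and 26.1 CPM in the controls and 58.4, 72.5 and 55.6 CPM in silicosis, a 2.48-fold rise. The groups of both genes lay far apart. Slc15a3 shares 30.9% of its windows with other genes. Tpcn1, a two-pore channel, was the gene that fell, by 0.69 on the log2 scale, and is named after its value was seen.

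Of 9 genes that deliver hydrolases 3 rose, but 1 did without C7, C8, N129 or N136, and without N136 1 was called lower. Gnptab, which makes the mannose 6-phosphate tag, had 88.7, 94.3 and 103 CPM in the controls and 143, 175 and 139 CPM in silicosis (log2 fold change 0.67, SE 0.11). Gga2, a sorting adaptor, had 32.9, 33.7 and 40.5 CPM in the controls and 48.5, 53.5 and 41.6 CPM in silicosis (log2 fold change 0.42, SE 0.13), with N138 close to C9. The Gga2 call ended without C7, C8, N129 or N136, at edgeR adjusted p from 0.0891 to 0.116. Of 4 tested inhibitors of cysteine proteases 2 rose, and 1 was called lower without N136. Cstb, an intracellular inhibitor of cathepsins, had 15.9, 21.2 and 16.4 CPM in the controls and 29.99, 38.1 and 28.6 CPM in silicosis, a 1.81-fold rise, whereas Cst3, the secreted cystatin C, had a log2 fold change of -0.30 and did not pass. Stfa2l1, a stefin, had 0.149, 0.479 and 0.548 CPM in the controls and 1.04, 0.780 and 2.25 CPM in silicosis. It was called higher, but not with limma-voom (adjusted p = 0.0532) or on leaving out C7, C8, C9, N129 or N138, at edgeR adjusted p up to 0.137.

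A list of 16 genes, made up of regulators of TFEB and the related factor Tfec, held genes with opposite roles, and 6 rose and 1 fell. The Rag and mTORC1 genes act to keep TFEB in the cytosol, whereas Ppp3ca and Ppp3cb, subunits of the phosphatase calcineurin, act to release it. The 6 rises were Rragc, Fnip1, Fnip2 and Lamtor3 of the former, Ppp3cb (log2 fold change 0.48), and Tfec, a transcription factor. Fnip2, a partner of folliculin, had 81.4, 88.7 and 75.8 CPM in the controls and 170.1, 209.98 and 221 CPM in silicosis, without overlap (edgeR adjusted p = 0.000138). Lamtor2, a subunit of the Ragulator scaffold, was the gene that fell, with 19.9, 22.0 and 24.3 CPM in the controls and 11.6, 11.3 and 9.32 CPM in silicosis (log2 fold change -1.04, SE 0.14). Tfec, a relative of the MiT/TFE factors, had 3.602, 6.68 and 4.65 CPM in the controls and 10.5, 13.3 and 12.1 CPM in silicosis (log2 fold change 1.26), and, like the other rises except Fnip2, is named after its values were seen.

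Of 13 autophagy genes 0 rose, 4 fell and 9 did not pass, 7 of the 13 having log2 fold changes above 0, beside 15.3% of all tested mRNAs called higher and 16.5% lower. With DESeq2, limma-voom or at an unadjusted edgeR p under 0.05, 0 were higher as well. Map1lc3a, an LC3 protein of the autophagosome membrane, had 54.7, 57.0 and 44.3 CPM in the controls and 25.3, 27.1 and 25.5 CPM in silicosis (log2 fold change -1.003, SE 0.12). Calcoco1, an autophagy receptor, had 138.1, 134 and 184 CPM in the controls and 65.8, 70.003 and 71.0 CPM in silicosis (log2 fold change -1.14, SE 0.13). For both genes every silicosis library was below every control library.

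Of 15 genes of the response to lysosome damage 4 rose (26.7%) and 2 fell, beside 15.3% of all tested mRNAs called higher and 16.5% lower. The count of rises was 2 without C7, C8, C9 or N129, and that of falls was 4 without N136. Lgals3, galectin-3, which binds sugars bared on broken lysosomes and is abundant in macrophages, had 72.3, 102 and 71.0 CPM in the controls and 232, 398 and 244 CPM in silicosis, a 3.56-fold rise with N136 the highest. Trim16, a ubiquitin ligase that works with it, had 114, 115 and 111 CPM in the controls and 74.1, 62.0 and 69.7 CPM in silicosis (log2 fold change -0.73, SE 0.09).

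In the authors' deposited table, of the 47 genes, 30 had an adjusted p under 0.05 and a positive log2 fold change, and 0 had a negative one. The change column of the authors' deposited table, in which each mRNA marked up is at least 2-fold higher, marks 7 of the 47 as up. By adjusted p alone, the authors' deposited table held all 29 genes called here, with Atp6v0d1 (log2 fold change 0.41, adjusted p = 0.0445) as the further one.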

How the data were processed

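Total RNA from whole lung was measured in 6 libraries. The authors deposited raw counts per gene, and, in a comparison table, log2 fold changes with adjusted p-values, per the file headers. Per the submitters' processing notes, the tools were DESeq2 1.36.0, featureCounts 2.0.0, Trimmomatic 0.39, Bowtie2 and HISAT2, listed without roles, and the build was GRCm39. Annotation and strand setting: not given in the sources used here, so reads of overlapping genes cannot be told apart. Tables of lncRNA and circRNA were not used here.

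All 17973 mRNAs were fitted with edgeR 4.0.16 in R 4.3.3 (filterByExpr, TMM scaling, two-sided quasi-likelihood F test, Benjamini-Hochberg adjustment over 15808 mRNAs). The SE is the log2 fold change divided by the square root of F. Single ratios were compared by exact permutation, adjusted over 5 ratios, of which 1 is not reported here. Other settings tried were limma-voom (limma 3.58.1), the DESeq2 1.42.0 test, its size factors within edgeR, an unfiltered table, a 2-fold minimum, each library left out, and leaving out genes with shared windows or leukocyte markers. Shared windows are the share of 50-base windows, every 5 bases of the longest GENCODE M21 transcript, found in another gene. Within groups, chi-square per degree of freedom between libraries was 15.3 to 82.1, so no library was a copy of another. On simulated counts with 15678 genes kept, 75% of 100 genes set to a 2-fold change were found, as were 95% of 100 set to 4-fold. Genes left alone made up 5.03% of the calls. No other genes were changed in the simulation, whereas 31.8% of all tested mRNAs were called in the data. Changes under 2-fold were not simulated, so how often the test finds them is not known.

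The members and lists were chosen with earlier results of these data known. Values per library are given, in each role, for the called genes with the highest and lowest fold change and the 2 lowest p, for called falls and for each factor; in each other lysosomal list, for the 2 called genes with the lowest p; and for the genes of the ratios. Ctsd, Gaa, Npc2, Lamp1, Lyz2 and Tfec were given values outside this rule, after these were seen. Other genes are named with fewer values.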

Additional observations from a re-analysis of the deposited data

How the results depend on the processing

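Of the 29 lysosomal genes called higher, 17 kept their call under all 10 alternatives other than the 2-fold minimum, and 12 lost it under at least 1, always when a library was left out. None of the 47 changed direction while called, and 3 others, Atp6v0d1, Gaa and Laptm5, gained a call under at least 1. The count of genes higher was between 18 and 30 with 1 library left out, 18 without C7, and between 0 and 1 were lower. It was 29 with DESeq2 size factors, without the filter and with limma-voom, and 30 with DESeq2. Leaving out the 8 genes that share at least 10% of their windows gave 23 higher, and leaving out Cd68 and Laptm5 gave 28. With a 2-fold minimum, 8 of the 47 and 13 genes of the other lysosome lists were higher and 3 of those lists lower, as were 852 higher and 479 lower of all tested mRNAs.

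With 1 library left out, the other lists had between 28 and 36 higher and between 8 and 17 lower, and all mRNAs between 1617 and 2580 higher and between 1867 and 2633 lower. The median log2 fold change of the 47 genes was then between 0.32 and 0.53. The ratio differences ranged from 1.19 to 1.37 for Tcirg1 over Atp6v0a1, 0.73 to 0.92 for Atp6v0d2 over Atp6v0d1, 2.60 to 2.89 for Ctsk over Ctsl and 0.61 to 0.85 for Mitf over Tfeb. No paired analysis was possible because the groups share no replicate numbers.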
